A study of Arabidopsis thaliana with 18 samples.

Results

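A set of 28 probe sets, of 22746 analysed on the Arabidopsis ATH1 array, had a higher signal in potassium-starved than in control shoots and a lower signal in potassium-starved than in control roots. The rule took group means of log2(signal + 16). It asked for a potassium-starved minus control difference of at least 0.8 in shoots and of at most -0.4 in roots, with a mean signal of at least 60 in potassium-starved shoots and in control roots, and XTH19, which met it, was left out. The members were thus selected on measured signals of the control and potassium-starved arrays, and these differences are described below without a test. Of the 28, 14 match 1 gene in the annotation used here and 14 are not listed there, and the latter are called by their probe set identifiers.

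Plants of Arabidopsis thaliana, ecotype Ws-2, were sampled at growth stage 3.90, and transcripts of shoots and roots were measured with 3 arrays in each of 6 groups. Potassium-starved plants received a dilute Murashige and Skoog nutrient solution that lacked potassium, caesium-treated plants received a dilute solution of the same kind with 2 mM caesium, and the labels name no treatment for the control plants. A sample was a pool of 40 to 50 plants, with 1 array for each. Samples of a group are numbered 1 to 3 in the labels, with no statement on separate sowings, and the spread behind every p-value is therefore that between these samples, which may be technical.

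Potassium is the main cation that plant cells use to build turgor, to balance charge and to activate enzymes, and it moves readily between roots and shoots in xylem and phloem. Plants short of potassium change transport, hormone signalling and growth differently in the root, where the ion is taken up, and in the leaves, which export it from older tissue. Caesium, an alkali metal ion of similar charge and size, enters roots through potassium transport systems and competes with potassium for them. The named members of the set encode proteins of the cell wall and the space outside the cell, a protease, proteins of lipid-binding families, a membrane transporter, a cytochrome P450, a ribosomal protein and others.

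Both signal floors were met by 6896 probe sets. Of these, 729 also met the shoot threshold and 593 the root threshold, and 29 met both before XTH19 was left out. For comparison, 227 probe sets met the floors and the shoot threshold with a root difference of at least 0.4 upward. Members had shoot differences of 0.80 to 3.17, with a median of 1.22, and root differences of -1.24 to -0.41, with a median of -0.55. The medians over all 13647 probe sets tested in each organ were -0.12 in shoots and -0.02 in roots. The shoot difference was at least 1, or 2-fold on this scale, for 20 members, while the root difference reached that size for 1, AT5G01740.

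**Figure D1:**
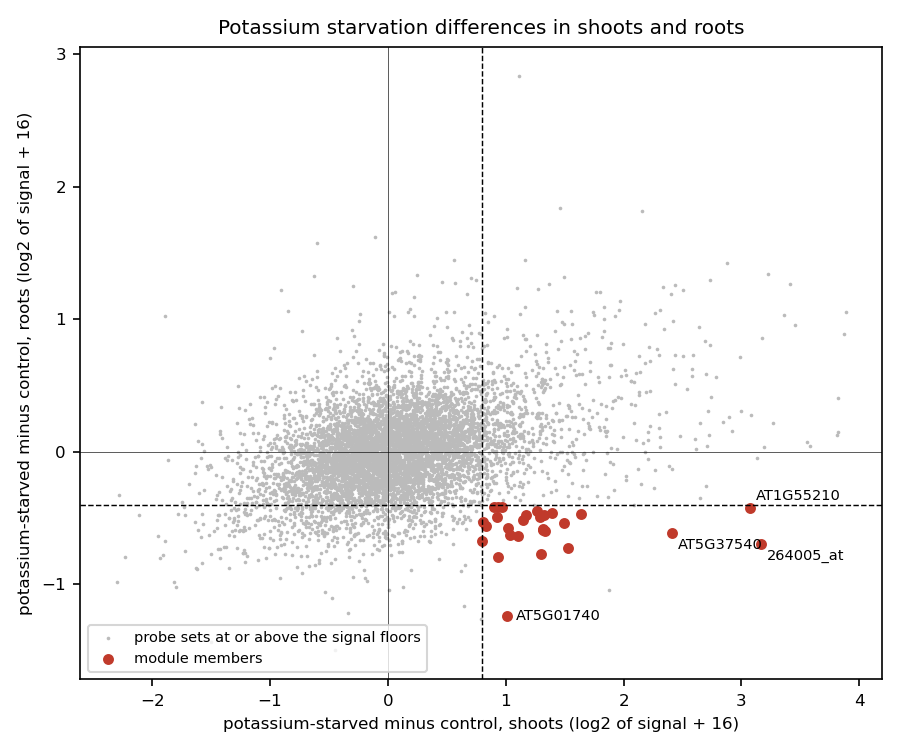
Potassium-starved minus control difference in shoots (horizontal) and roots (vertical), both in log2 of signal + 16, for the 6896 probe sets above the signal floors. Red points are the 28 members, dashed lines are the thresholds of 0.8 and -0.4, and the grey point inside the lower right area is XTH19, which the rule leaves out. Members extend to 3.17 along the shoot axis, and in roots all but AT5G01740 lie above -0.8.

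Several members lay close to a threshold. Just inside the shoot threshold stood 250207_at with 0.80 and AT1G68680 with 0.81, and just outside it were 266752_at and 248676_at with 0.79 each. Just inside the root threshold were 264382_at and AT3G13650, both with -0.41. Just outside were AT2G46140 with -0.398 and 258941_at with -0.397, whose shoot differences of 1.24 and 2.09 met the shoot threshold.

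Over whole arrays, median signals lay between 33.0 and 45.4, and arrays of the same group correlated across probe sets with r between 0.956 and 0.985. The summed signal of 30 photosynthesis probe sets was 38184 to 55798 on shoot arrays and 2931 to 8538 on root arrays, and that of 5 root marker genes was 296 to 1380 on shoot arrays and 2281 to 3802 on root arrays, so the organ labels matched their markers. None of the 5 root markers was at 0 in shoots. The root hair genes XTH26 (0.7 to 1.6), EXPA7 (14.0 to 24.4) and EXPA18 (15.2 to 30.1) stayed low on all 9 shoot arrays, while PYK10, a beta-glucosidase abundant in roots, was at 46.9 to 1200. The remaining root marker, BGLU25, of the same enzyme family, was higher in potassium-starved shoots (142 to 272) than in control shoots (100.0 to 126), by 0.64 ± 0.22 on the log2 scale (limma adjusted p = 0.0476), the only call among 2 tested root markers. In roots BGLU25 was at 106 to 276 in starved plants and 171 to 793 in controls, with overlap. In control, potassium-starved and caesium-treated shoots the root marker sum was highest on replicate 2 each time, and the groups overlapped (304 to 1380, 352 to 1097 and 296 to 1157). The photosynthesis sum was lower in potassium-starved shoots (38184 to 45517) and caesium-treated shoots (42855 to 48232) than in control shoots (50309 to 55798). Each had a two-sided exact permutation p of 0.1, the smallest that 3 against 3 arrays allow, or 0.3 adjusted over 12 tests. By limma 8 of the 30 probe sets were lower and 0 higher in starved shoots, where 17.1% of all tested probe sets were lower. Their differences there ran from -2.21 (psaA) to 0.10 (psbE), so they did not move together. In caesium-treated shoots 0 of the 30 were called, where 0.997% of all tested probe sets were. As a median of log2 values over the same 30 probe sets, the difference was -0.47 in starved shoots (exact permutation p = 0.1) and -0.14 in caesium-treated shoots (exact permutation p = 0.4), where the groups overlapped. In caesium-treated roots that median was 0.74 above control (exact permutation p = 0.1, or 0.267 adjusted over 8 tests of medians), while the sums overlapped. In samples of whole organs, fewer cells of a type and less RNA per cell cannot be told apart.

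On the 3 potassium-starved shoot arrays, 27, 28 and 28 of the 28 members were above their control shoot mean, and the medians of the members' deviations were 1.37, 1.32 and 1.03 on the log2 scale. On the potassium-starved root arrays, 26, 26 and 28 members were below their control root mean, with medians of -0.50, -0.62 and -0.58. The rule chose the members on these same arrays, so these counts and medians restate the choice. The median log2 value of the 5 root markers was also lower in potassium-starved roots (6.43 to 6.57) than in control roots (6.83 to 7.30), by -0.53 without overlap (exact permutation p = 0.1, or 0.267 adjusted over 8 tests of medians). The ends of both ranges were the values of EXPA18, at 70.0 to 78.9 against 97.7 to 141.9. By limma, EXPA18 differed by -0.53 ± 0.16 (adjusted p = 0.121) and BGLU25 by -1.16 ± 0.48 (adjusted p = 0.229). EXPA7 differed by -0.08 ± 0.18 (adjusted p = 0.842) and PYK10 by 0.32 ± 0.19 (adjusted p = 0.378), likewise by limma. The root markers thus did not move together. The summed signal of the 5 markers overlapped, at 2738 to 3739 against 2281 to 3394. The part of these markers, and of BGLU25 in shoots, in the members' differences was not tested. Individual members differed more between arrays: in shoots all 3 potassium-starved arrays lay above all 3 control arrays for 22 members, against 17.2% of all tested probe sets, and in roots all 3 lay below for 13, against 12.1%. The rule used these arrays, so the shares are given as a description. Both conditions held for 11 members, of which the named ones are AT1G55210, AT5G37540, AT2G39210, AT3G06680 and IRX15-L. Neither held for 4, EXO, AT3G53980, AT3G13650 and AT5G01350. The shares of all tested probe sets with both or with neither were not counted, so nothing is read from these counts.

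**Figure D2:**
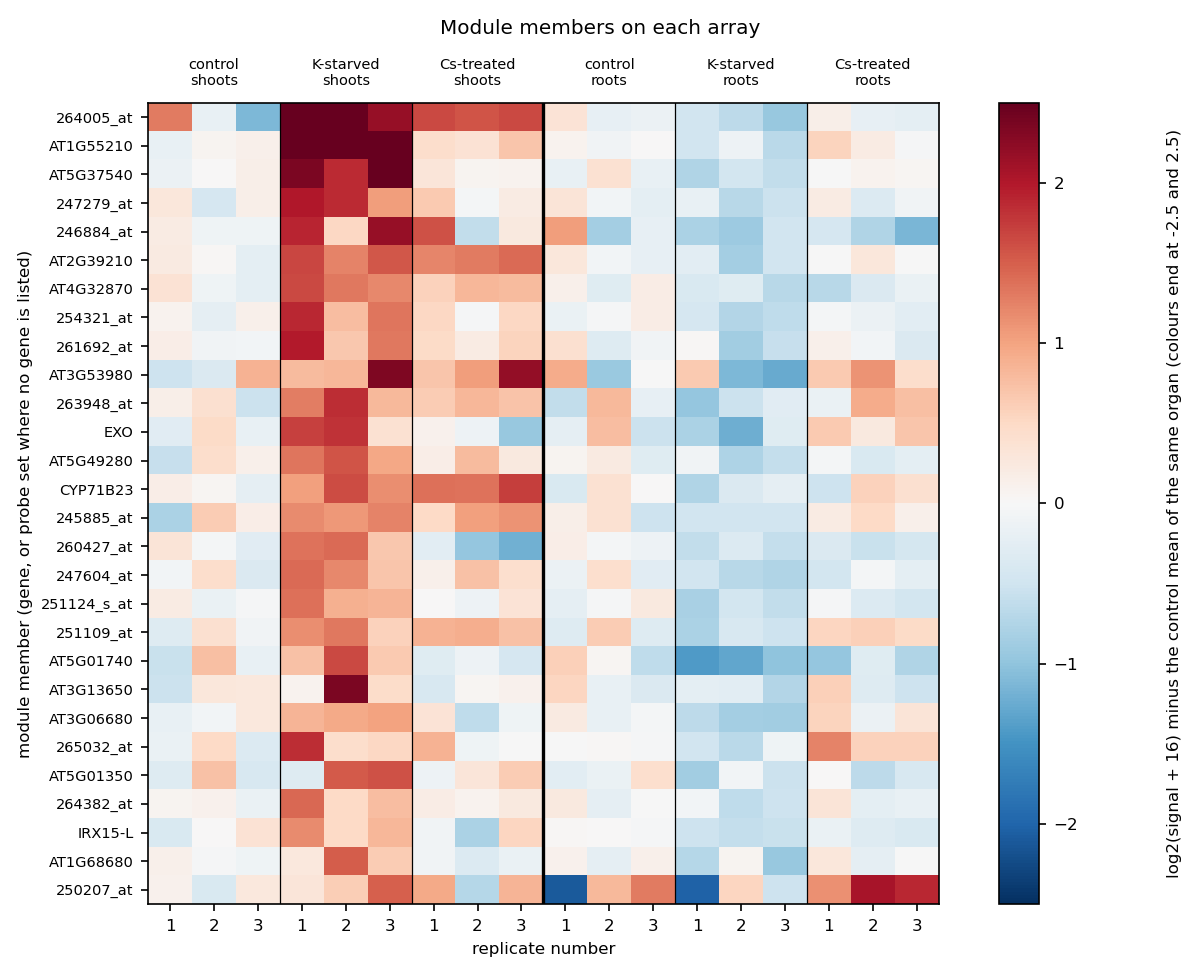
Each of the 28 members (rows, by shoot difference) on each of the 18 arrays (columns, by organ, treatment and replicate number), as log2(signal + 16) minus the mean of the 3 control arrays of the same organ. Potassium-starved shoot columns are red for nearly all members, potassium-starved root columns are mostly pale blue, and caesium-treated shoot columns are dark red for few members, among them 264005_at, AT2G39210 and CYP71B23.

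Among the secreted and wall-related members, AT1G55210 stood out. It belongs to the dirigent family, extracellular proteins of which some steer the coupling of phenolic radicals in lignan and lignin formation. Its signals were 161, 194 and 203 on the control shoot arrays and 1965, 1770 and 1346 on the potassium-starved ones. In roots they were 314, 273 and 294 on the control and 206, 267 and 178 on the potassium-starved arrays. Groups did not overlap in either organ, although control root replicate 2 and potassium-starved root replicate 2 were only a few units apart. The difference was 3.07 in shoots, the largest of a named member, and -0.42 in roots, one of the smallest.

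A second dirigent family gene, AT3G13650, rested on 1 array in shoots. It stood at 36.3, 76.1 and 74.9 in control shoots and at 65.2, 371 and 87.9 in potassium-starved shoots, so that replicate 2 alone was far above the controls. In control roots it was at 714, 425 and 376 and in potassium-starved roots at 406, 404 and 285, with overlap. Its differences were 0.97 in shoots and -0.41 in roots.

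EXO, or EXORDIUM, is an extracellular protein induced by brassinosteroids and linked to cell expansion. Control shoots had signals of 95.1, 172 and 103 and potassium-starved shoots of 425, 455 and 161. Replicates 1 and 2 of the starved shoots were above all controls, while replicate 3 lay within their range. In roots EXO stood at 146, 308 and 115 in controls and 94.1, 65.9 and 137 in starved plants, again with overlap. The differences were 1.30 and -0.77.

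IRX15-L is a protein of the Golgi needed for the normal chain length of xylan, a polymer of secondary cell walls. It was at 33.5, 49.0 and 67.0 in control shoots and at 129.7, 74.5 and 98.4 in potassium-starved shoots, a difference of 0.83. In roots the replicates were tight, at 130.0, 128 and 125 in controls and 84.7, 79.4 and 81.0 in starved plants, a difference of -0.56. Neither pair of groups overlapped.

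AT5G49280 encodes a hydroxyproline-rich glycoprotein, a class of structural wall proteins. Its signals of 299, 355 and 226 in potassium-starved shoots all exceeded the 67.2, 154 and 120.1 of control shoots. In roots, 171, 100.5 and 116 in starved plants overlapped with 193, 218 and 147 in controls. The differences were 1.29 and -0.49.

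AT5G37540, a member of the aspartyl protease family, was close to background in control shoots. Its signals there were 17.5, 21.2 and 25.1, with a mean below the 26.7 that marked the 40th percentile of shoot means, and those in potassium-starved shoots were 175, 119.7 and 284. The shoot difference of 2.42 therefore depends on the 16 added before taking logarithms. Control roots gave 95.1, 149 and 94.9 and potassium-starved roots 58.9, 76.5 and 66.8, a difference of -0.61, and the groups were separate in both organs. Of the 28 members this gene was the only one whose mean of untransformed control shoot signals was under that value. The percentile itself was set on the log2 scale, where 264005_at, with control signals of 84.2, 19.4 and 2.7, was under it as well.

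Lipid-binding families were represented by AT3G53980 and AT4G32870. AT3G53980 encodes a protein of the lipid transfer protein family, small secreted proteins that carry lipids. It varied widely within groups, with 22.9, 27.5 and 85.6 in control shoots and 79.6, 83.2 and 265 in potassium-starved shoots. Replicate 3 was high in both shoot groups, and the groups overlapped. In control roots it stood at 1116, 299.6 and 578 and in starved roots at 925, 257 and 233, with replicate 1 high in both. The differences of the means were 1.32 and -0.58. Shoot arrays of the same number, which paired in this comparison, differed by 1.30, 1.19 and 1.47, a narrower spread than that inside the groups.

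AT4G32870 belongs to a superfamily of polyketide cyclases and lipid transport proteins. Control shoots were at 55.1, 35.0 and 30.5 and potassium-starved shoots at 157, 122 and 111, without overlap and with a difference of 1.39. Control roots were at 568, 413 and 586 and starved roots at 392, 414 and 312, where starved replicate 2 just exceeded control replicate 2. The root difference was -0.46.

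AT2G39210 encodes a nodulin-like membrane protein of the major facilitator superfamily of transporters. It was at 235, 204 and 165 in control shoots and 669, 495 and 617 in potassium-starved shoots. In roots its signals were 526, 413 and 371 in controls and 356, 232 and 305 in starved plants. The groups were separate in both organs, with differences of 1.49 and -0.54.

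CYP71B23 is a cytochrome P450, a haem enzyme of a family that oxidises specialised metabolites. Its shoot signals were 111, 101 and 81.4 in controls and 213, 333 and 238 in starved plants, without overlap. Its root signals, 139, 245 and 188 in controls and 104, 140.3 and 157 in starved plants, overlapped. The differences were 1.27 and -0.45.

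AT3G06680 encodes ribosomal protein L29e of the large cytosolic subunit, and had some of the tightest groups of the set. Control shoots were at 396, 431 and 544 and potassium-starved shoots at 833, 891 and 924. Control roots were at 548, 411 and 455 and potassium-starved roots at 290.1, 254 and 248. Its differences of 0.94 and -0.79 were similar in size, and both pairs of groups were separate. Hybridisation of transcripts from closely similar ribosomal protein genes to this probe set was not tested.

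AT5G01740, a protein of the nuclear transport factor 2 family, had the most negative root difference of the members. Its signals were 184, 122 and 69.3 in control roots and 33.6, 38.2 and 50.3 in potassium-starved roots, without overlap and with a difference of -1.24. In shoots the groups overlapped, at 21.3, 75.4 and 31.7 in controls and 74.6, 154 and 69.8 in starved plants, and replicate 2 was highest in both. The shoot difference was 1.01.

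The remaining named genes were AT5G01350 and AT1G68680. AT5G01350 stood at 114, 256 and 107 in control shoots and 114, 454 and 476 in starved shoots, where replicate 1 lay within the range of the controls. AT1G68680 stood at 129.7, 115 and 108 and 145, 366 and 189.7, with all starved arrays above the controls. In roots both overlapped, with differences of -0.49 and -0.53.

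**Figure D3:**
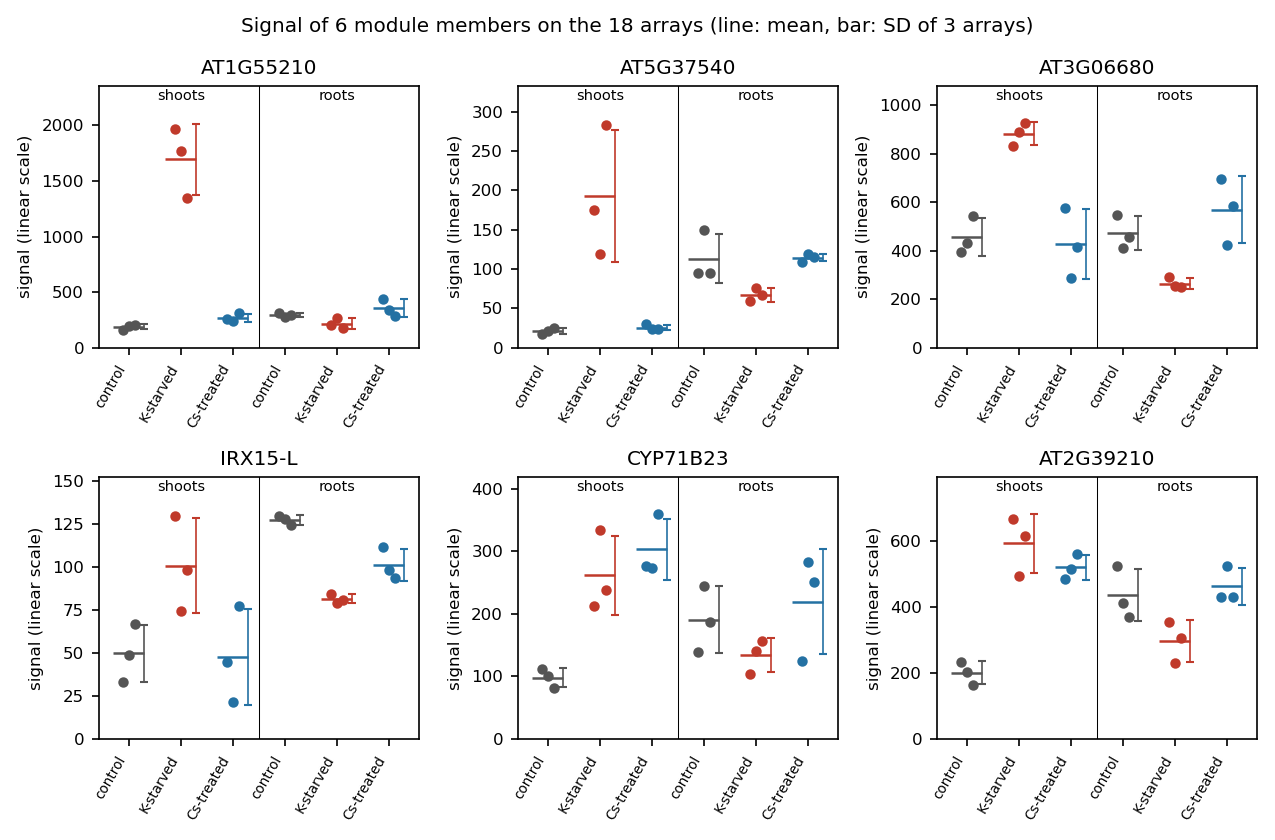
Signals (linear scale, vertical) of 6 members on every array, by treatment (horizontal) in shoots (left of the line) and roots (right). Points are arrays, horizontal lines are means and bars are the SD of 3 arrays. AT1G55210 is at 1346 to 1965 in potassium-starved shoots and at most at 441 elsewhere, while CYP71B23 and AT2G39210 are also high in caesium-treated shoots.

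Of the 14 members without a listed gene, 13 had separate groups in shoots and 7 in roots, against 17.2% and 12.1% of tested probe sets. The rule used these arrays, so these counts restate the choice of members. Those named here were chosen after their values were seen. The largest shoot difference of all members, 3.17, belonged to 264005_at, with 84.2, 19.4 and 2.70 in control shoots and 378, 656 and 166 in potassium-starved shoots. Its control values ran down to background, so this size too depends on the added 16. In roots it stood at 594, 404 and 421 in controls and 329, 289 and 235 in starved plants. 251124_s_at, whose suffix marks probes shared by more than 1 transcript, gave 40.6, 27.9 and 31.9 and 112, 74.8 and 72.8 in control and starved shoots. In roots it gave 242, 282 and 343 and 157, 205 and 180.3. Both pairs were separate for these probe sets. By contrast, 250207_at was erratic in roots, at 2.60, 124 and 179 in controls and 3.60, 99.2 and 39.6 in starved plants, with replicate 1 near 0 in both. Similarly, 246884_at had a control root mean above 60 only through replicate 1, with 144, 27.0 and 51.4.

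Organ levels of the same probe set were compared as a description. The rule's thresholds move every member from roots toward shoots, and its floors use control roots and starved shoots, so the counts here restate the choice of members. In control plants 26 of 28 members had a higher mean signal in roots than in shoots, against 59.3% of 13647 probe sets, and 13 were higher by at least 1 on the log2 scale. In potassium-starved plants 6 members still had the higher mean in roots, against 57.4%. For 20 members the order of the organs thus differed between control and starved plants, which was so for 10.4% of all probe sets. AT4G32870, AT3G53980 and AT3G13650 were among those that stayed higher in roots, with starved root means of 373 ± 53.9, 471 ± 393 and 365 ± 69.1 (SD, n = 3) against 129.9 ± 24.0, 142 ± 106 and 175 ± 170.1 in starved shoots.

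Caesium treatment gave a test outside the rule's contrast, although it shares the control arrays with the rule. Its limma SE and p-values came from the fit to all arrays of an organ, which include the potassium-starved ones. Caesium-treated shoots had 2 members higher than control shoots and 0 lower at a limma adjusted p under 0.05, where 0.997% of all tested probe sets passed, 0.762% higher and 0.234% lower. The median difference of the 28 members was 0.35, with 21 positive and 7 negative, against a median of 0.02 over all tested probe sets. The choice of low control shoots favours positive signs here, so these counts are a description. The calls of higher members in caesium-treated shoots, with or without a block, share that limit. CYP71B23 rose from 97.9 ± 15.2 to 303 ± 48.8 (SD, n = 3), with caesium-treated arrays at 277, 273 and 359. The log2 change, with its SE, was 1.48 ± 0.20 (limma adjusted p = 0.0118). AT2G39210 rose from 201 ± 35.3 to 521 ± 37.5 (SD, n = 3), with caesium-treated arrays at 487, 515 and 561. Its log2 change was 1.32 ± 0.18 (limma adjusted p = 0.0118). For both genes every caesium-treated array was above every control array, as for 8 members in all, against 14.8% of tested probe sets, a count that the choice of low control shoots favours. Beside these values, their differences under potassium starvation were 1.27 and 1.49.

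Both calls were lost without control shoot replicate 3, caesium-treated shoot replicate 2 or caesium-treated shoot replicate 3, with limma adjusted p between 0.0596 and 0.072 in those fits. Replicate numbers paired the arrays in this comparison, and with the number as a block 6 members were higher and 1 lower, where 5.79% of tested probe sets passed, 3.59% higher and 2.20% lower. In that limma fit AT3G53980 was higher by 1.31 ± 0.14 (adjusted p = 0.00331) and AT4G32870 by 0.74 ± 0.18 (adjusted p = 0.0362), while without the block their adjusted p was 0.243 and 0.0985. AT3G53980 stood at 74.3, 98.7 and 239 on the caesium-treated shoot arrays, with replicate 3 highest as in the other shoot groups. Also called with the block were 264005_at (1.63 ± 0.42, adjusted p = 0.0476) and 251109_at (0.84 ± 0.18, adjusted p = 0.0258) as higher. 260427_at was called lower (-0.81 ± 0.17, adjusted p = 0.0217). The last was at 414, 314 and 267 in control shoots and 270.0, 160.4 and 133 in caesium-treated shoots, against 867, 893 and 530.1 in potassium-starved shoots.

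For the members with the largest or tightest differences under potassium starvation, the values of both treatments stand side by side here. AT1G55210 was at 256, 241 and 311 in caesium-treated shoots, all above the controls, with a difference of 0.50 (95% interval 0.10 to 0.90, limma adjusted p = 0.22) beside 3.07 under potassium starvation. AT5G37540 was at 29.9, 23.1 and 23.7, with a difference of 0.16 (95% interval -0.39 to 0.70) beside 2.42. AT3G06680, at 576, 288 and 417, had a difference of -0.13 (95% interval -0.64 to 0.37) beside 0.94. Caesium-treated arrays of these 3 genes all lay below the starved ones. Over the whole set, 15 members had all caesium-treated shoot arrays below all potassium-starved ones, against 15.9% of tested probe sets, a count that the choice of high starved shoots favours. EXO, at 130.2, 108 and 54.1, and IRX15-L, at 44.7, 21.4 and 77.2, had intervals of -1.17 to 0.54 and -0.81 to 0.59, which include no difference.

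**Figure D4:**
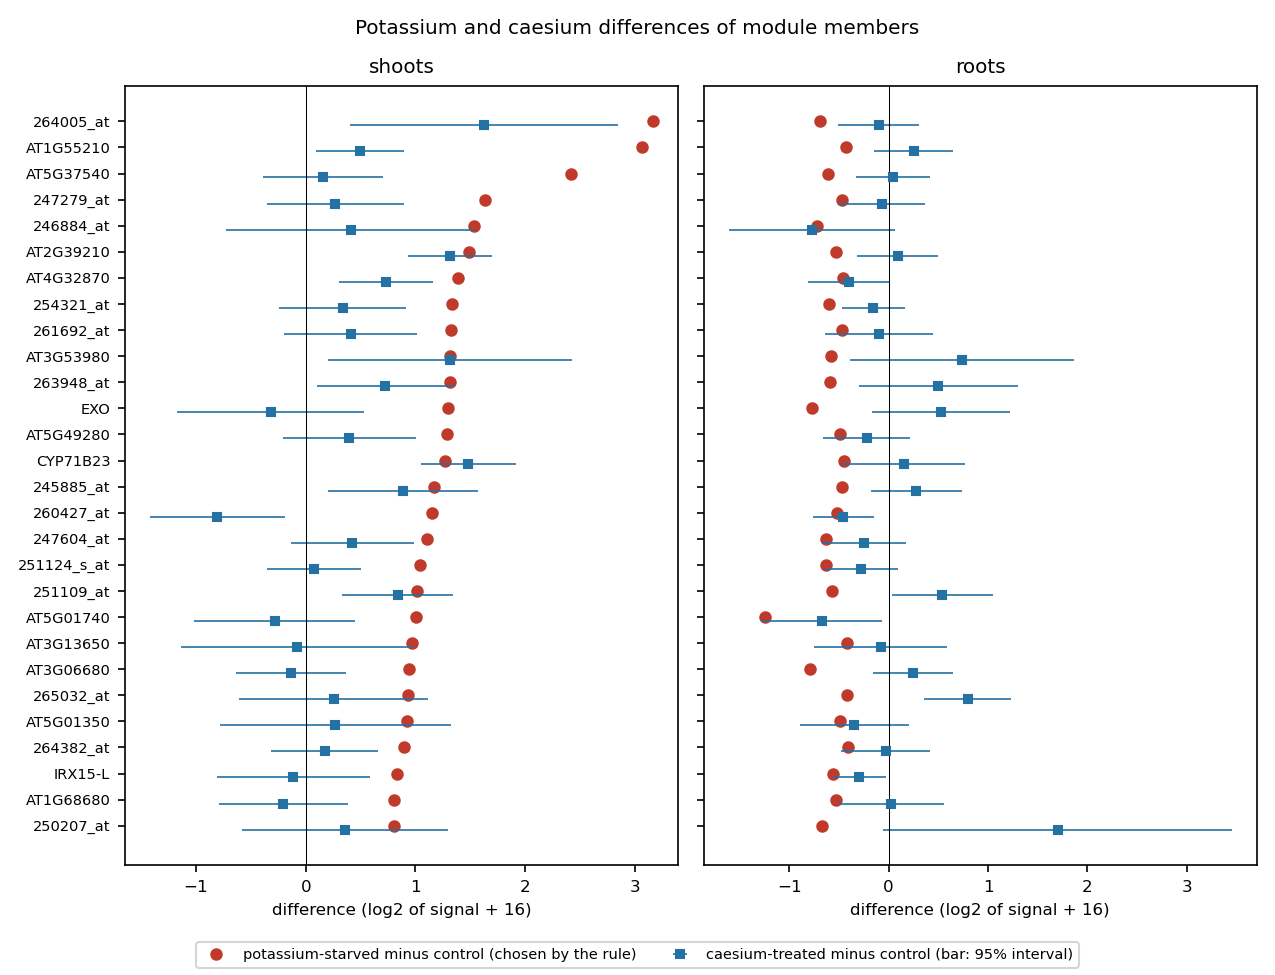
Differences from control in shoots (left) and roots (right) for the 28 members, in log2 of signal + 16. Red circles are potassium-starved minus control, the values that chose the members, and blue squares are caesium-treated minus control with the 95% interval of limma. In shoots the blue squares of CYP71B23 and AT2G39210 lie at 1.48 and 1.32 near their red circles, and those of AT1G55210 and AT5G37540 lie at 0.50 and 0.16, far from theirs.

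Caesium-treated roots differed from control roots at 0 of the 28 members, and at 0.00% of all tested probe sets, by limma at an adjusted p under 0.05. At an unadjusted p under 0.05 there were 5 members and 1352 of 13647 probe sets, and 0 members passed in the fit blocked by replicate number, which paired these arrays, where 0.374% of probe sets did, 0.161% higher and 0.213% lower. The median difference of the members was -0.05, with a range of -0.78 to 1.70. The choice of high control roots favours negative differences here, so these counts and the median are a description. AT5G37540 gave 109.6, 119 and 115 on the caesium-treated root arrays, with a difference from control of 0.04 (95% interval -0.33 to 0.41) beside -0.61 under potassium starvation. AT3G06680 gave 697, 423 and 586, a difference of 0.24 (95% interval -0.16 to 0.65) beside -0.79. AT2G39210 gave 431, 526 and 432, a difference of 0.09 (95% interval -0.31 to 0.49) beside -0.54. For these 3 genes all caesium-treated root arrays were above all starved ones, as for 15 members in all, against 16.4% of tested probe sets. Here too the choice of low starved roots favours the count.

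The choice of high control roots also favours caesium-treated arrays below them, so the next count is a description. 2 members had all caesium-treated root arrays below all control root arrays, against 7.82% of tested probe sets. They were IRX15-L, at 112, 98.2 and 93.8, and 260427_at, at 327, 280.4 and 305, with limma adjusted p of 0.45 and 0.286. AT5G01740 was at 51.6, 91.4 and 63.4 in caesium-treated roots, with a difference of -0.68 (95% interval -1.28 to -0.07, limma adjusted p = 0.457). This stands beside -1.24 in starved roots, and the choice of high control roots favours its sign. The 265032_at probe set was the only member with all caesium-treated roots above all control roots, at 179, 108 and 107 against 66.3, 68.6 and 65.5, where 7.46% of tested probe sets were above. The scanner background of the arrays, given in the labels, was 65.3 ± 7.48 in potassium-starved roots and 67.5 ± 4.55 in caesium-treated roots against 77.0 ± 1.89 in control roots (SD, n = 3, each with a two-sided exact permutation p of 0.1, or 0.3 adjusted over 12 tests). Its part in the root differences was not tested for the members under potassium starvation. With the background as a covariate, 0 members were called in caesium-treated roots, as without it, so this count tells nothing about the background. In potassium-starved roots nearly all of the 200 calls over all probe sets were lost with that covariate, and the cause was not tested.

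In the comparison of caesium-treated roots with caesium-treated shoots, only the difference of group means used no array of the rule. Its SE, intervals, p-values and filter came from the fit to all arrays, which include those of the rule. In addition, the rule chose high control roots and low control shoots, and 26 members had the higher mean in control roots. Organ levels of a probe set may carry over to caesium-treated plants, so the choice of members favours the root side here. The counts and calls of this comparison are therefore a description. At a limma adjusted p under 0.05, 14 members were higher in roots and 1 was lower, where 48.7% of 13647 probe sets passed, 26.9% higher and 21.7% lower. The median difference of the members was 0.71, against 0.12 over all tested probe sets. AT3G53980 was at 922, 1275 and 793 in caesium-treated roots and 74.3, 98.7 and 239 in caesium-treated shoots, a difference of 2.84 ± 0.57 (limma adjusted p = 0.000398). AT3G13650 was at 745, 383 and 334 and 41.7, 62.9 and 65.9, a difference of 2.72 ± 0.44 (limma adjusted p = 4.84e-05). AT4G32870 was at 315, 396 and 461 and 66.8, 82.6 and 79.4, a difference of 2.13 ± 0.19 (limma adjusted p = 4.02e-08). Arrays of the organs did not overlap for these 3 genes. The other dirigent gene, AT1G55210, was at 441, 341 and 289 and 256, 241 and 311, with overlap and a difference of 0.37 ± 0.18 (limma adjusted p = 0.105).

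Further genes with higher signal in caesium-treated roots were AT5G37540 (1.65 ± 0.22, limma adjusted p = 4.94e-06), EXO (1.34 ± 0.39, 0.00821) and IRX15-L (0.97 ± 0.25, 0.00384). EXO lost the call without caesium-treated shoot replicate 3 (limma adjusted p = 0.0544) and kept it in the other 16 alternatives. AT5G01740 (0.89 ± 0.33, adjusted p = 0.0336) and AT1G68680 (0.74 ± 0.27, adjusted p = 0.0306) passed by limma in 8 of 16 and 11 of 17 alternatives, with adjusted p up to 0.145 and 0.119. AT5G01740 was lost without caesium-treated shoot replicate 1 (0.074) or 3 (0.092) or caesium-treated root replicate 2 (0.135) or 3 (0.0619), as adjusted p by limma. AT1G68680 was lost without caesium-treated root replicate 1 (0.119) or 3 (0.0626) or caesium-treated shoot replicate 2 (0.0891) or 3 (0.0599), likewise by limma. Of the probe sets without a listed gene, 251124_s_at had the smallest adjusted p by limma (2.27 ± 0.18, 8.4e-09). The member that was lower in roots was 261692_at, at 169, 145 and 116 in caesium-treated roots and 546, 454 and 577 in caesium-treated shoots (-1.77 ± 0.28, limma adjusted p = 3.62e-05). AT2G39210 and CYP71B23, the members that rose in caesium-treated shoots, did not pass, with intervals of -0.55 to 0.21 and -1.04 to 0.05.

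**Figure D5:**
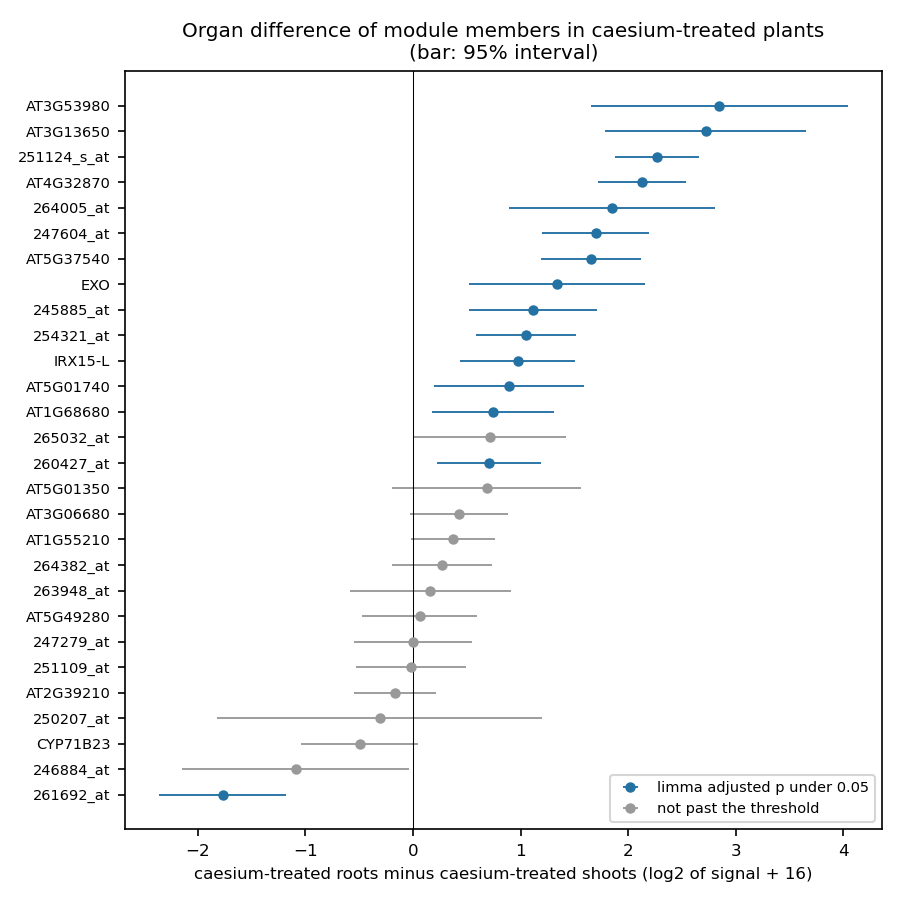
Caesium-treated roots minus caesium-treated shoots (horizontal, log2 of signal + 16) for the 28 members in order of the difference, with the 95% interval of limma. Blue points have a limma adjusted p under 0.05, 14 on the root side and 261692_at on the shoot side. Values run from -1.77 to 2.84.

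The response to caesium was then compared between organs as an interaction term over 18 arrays. It was negative for 22 members and positive for 6, with a median of -0.35 against -0.02 over all tested probe sets. The choice of low control shoots and high control roots favours negative signs, so nothing is read from this count, and the calls below share that limit. AT2G39210 was the 1 member that passed, where 0.381% of probe sets did, 0.198% lower. Its caesium difference was 1.32 in shoots and 0.09 in roots, an interaction of -1.23 ± 0.26 (limma adjusted p = 0.0479). This call held in 7 of 23 alternatives, with limma adjusted p between 0.00548 and 0.133. Of the 12 fits that left out an array it held in 1, that without control shoot replicate 1 (limma adjusted p = 0.0432), and was lost without any of the other arrays (up to 0.133 without caesium-treated shoot replicate 3). CYP71B23 had an interaction of -1.33 ± 0.37 and AT4G32870 of -1.14 ± 0.28, with limma adjusted p of 0.114 and 0.0784, past the threshold for neither.

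Other genes of cell wall and metabolic families were read from the same fits, in lists chosen with earlier results of these data known. In potassium-starved shoots 29.2% of probe sets passed limma at an adjusted p under 0.05, 12.1% higher and 17.1% lower, and in potassium-starved roots 1.47%, 0.975% higher and 0.491% lower. Of 8 tested expansins, proteins that loosen the wall, 3 rose and 1 fell in shoots (median 0.17), and 1 of 12 rose in roots (median 0.01). EXLA1 rose by 1.77 ± 0.32 (limma adjusted p = 0.003) and EXPA9 by 0.92 ± 0.20 (0.0082) in shoots, while EXPA8 fell by 1.45 ± 0.31 (0.00694). Of 4 xyloglucan endotransglucosylases, enzymes that cut and rejoin xyloglucan, 1 rose and 1 fell in shoots (median -0.51), and 1 of 7 fell in roots (median -0.61). The rise in shoots was that of XTH19, which the rule left out, and the fall was that of XTH16 (-1.07 ± 0.28, adjusted p = 0.017).

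Cellulose synthases and related glycan synthases went the other way in shoots, with 5 falls and 0 rises among 7 (median -1.05), and had 0 calls among 6 in roots (median -0.19). CSLC5 fell by 1.24 ± 0.19 (limma adjusted p = 0.00114) and CSLC04 by 1.15 ± 0.15 (0.000502), both of a family that makes the xyloglucan backbone. Of 4 peroxidases, haem enzymes of which many act in the wall, 3 rose in shoots (median 1.18), among them AT5G64120 by 1.43 ± 0.43 (limma adjusted p = 0.031), and 0 of 5 passed in roots (median -0.04). Among these wall genes outside the set, shoot differences thus had both signs, while those of IRX15-L and EXO inside it were positive by the rule. Of the lists that matched any probe set, that of cytochromes P450 alone held a member, and the lists of lipid transfer proteins and of extensins and proline-rich proteins matched 0 probe sets.

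The list of cytochromes P450 held mostly genes of the CYP71B subfamily, so it does not speak for all cytochromes P450. On it, 9 were tested in shoots beside the member CYP71B23, of which 0 rose and 3 fell (median -0.21). The 3 that fell were all CYP71B genes. CYP71B34 fell by 1.06 ± 0.23 (limma adjusted p = 0.00683) and CYP71B5 by 0.91 ± 0.23 (0.0143). CYP71B22, the neighbour of CYP71B23 on chromosome 3, had differences of -0.20 ± 0.51 under potassium starvation and 0.48 ± 0.51 under caesium in shoots (limma adjusted p = 0.802 and 0.733). In caesium-treated shoots CYP71B6 was at 0.86 ± 0.19 (adjusted p = 0.0584), named after its values were seen.

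The 14 named members lay on all 5 chromosomes, with 2 on chromosome 1, 1 on chromosome 2, 4 on chromosome 3, 2 on chromosome 4 and 5 on chromosome 5. None of the 15 adjacent genes that had a named probe set was itself a member. The nearest to the rule were both neighbours of AT3G53980, named after their values were seen. AT3G53970 had a shoot difference of 0.72 and AT3G53990 of 0.81, but their root differences were positive, 0.16 and 0.30.

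Membership was recomputed under other settings. With 1 in place of 16 added to the signal, 42 probe sets met the rule, among them all 28, and with 64 added 13 did, all of them among the 28. With the arrays centred on their medians 28 met it, of which 24 were shared. With group medians in place of group means 39 met it, of which only 19 were shared. Without the 2 arrays titled as repeats 38 met it, of which 23 were shared. Leaving out each array in turn gave 27 to 42 members, of which 18 to 26 were shared, the highest count without control root replicate 2 and the lowest sharing without control root replicate 1. AT3G06680 and AT5G37540 were the named members that stayed in all 12 of these, and AT5G01350 stayed in 6 and 250207_at in 7.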

How the data were processed

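Signals of 18 ATH1 arrays were used as the authors deposited them, as intensities on a linear scale. From the values, each array had been scaled so that its mean without the outer 2% at either end was about 100; the software and detection calls are not given in the sources used here. Precision is limited by having 3 arrays a group. Of 22810 probe sets, 64 were controls. The annotation tables (RefSeq, assembly TAIR10.1, for names, chromosome numbers and neighbours only) gave 1 gene for 13513, several for 503, and 8730 were not listed. No coordinates were taken from them, since the labels state no genome build.

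Intensities were taken as log2(signal + 16) without further scaling. In each comparison, probe sets whose mean over the arrays used lay above the 40th percentile were tested, 13647 of them, with floors at a signal of 26.7 in shoots, 27.7 in roots and 30.1 over both organs. All 28 members passed each filter, which the rule's own floors favoured. Group-means models were fitted with limma 3.58.1 (lmFit, eBayes) in R 4.3.3 to the 9 arrays of an organ, or to 18 arrays for comparisons of organs. Two-sided p-values were adjusted over all tested probe sets by the Benjamini-Hochberg method, with a threshold of 0.05. Fold changes and differences are on the log2(signal + 16) scale, which understates changes of dim probe sets. Tables and plots were made with Python 3.11.15, pandas 2.3.3, numpy 2.4.6 and matplotlib 3.10.9, and the fits were tested on simulated data.

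The members and the gene lists were chosen with earlier results of these data known. Genes were named by a rule: named members with the 12 largest differences in each organ, up to 6 per direction past the threshold in each caesium comparison, those nearest the thresholds, and up to 3 genes of each list with at least 2 calls. Of 29 lists, 6 had no tested probe set, and values are printed for those on the cell wall, peroxidases and cytochromes P450 and for the markers.

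Replicate numbers were taken to pair arrays where the deviations of same-numbered arrays correlated above 0.1 for every number. This held for caesium in shoots (lowest r 0.495) and roots (0.180) and for potassium starvation in shoots (0.319), but not for potassium starvation in roots (-0.030), for the organ comparison (-0.032) or for the interaction (-0.092). Alternatives were other pseudocounts, scalings and filters, the replicate number as a block, scanner background as a covariate, array weights, only the groups compared, and leaving out arrays.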

Additional observations from a re-analysis of the deposited data

Results flagged for a closer look

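AT2G39210, the nodulin-like membrane protein, passed the test of a difference between its caesium responses in the 2 organs, narrowly. Its signals were 235, 204 and 165 in control shoots and 487, 515 and 561 in caesium-treated shoots, while control roots were at 526, 413 and 371 and caesium-treated roots at 431, 526 and 432. The root response minus the shoot response was -1.23 on the log2 scale (limma interaction, adjusted p = 0.0479). It passed in 7 of 23 alternatives and in 1 of the 12 fits that left out an array, with limma adjusted p up to 0.133. The rule chose members with low control shoots and high control roots, which favours a negative value here. The call shares that limit and is a description.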

How the results depend on the processing

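The rule found 13 members with 64 added to the signal and 27 to 42 with an array left out. Probe sets called in caesium-treated shoots were 136, but 65 with 1 added, 30 without the filter, 790 with the replicate number as a block, 206 with scanner background as a covariate, 1330 with array weights and 0 to 123 without 1 array. Members called higher there were 6 with the block, 7 with weights and 0 to 2 without 1 array, and members called lower were 1 with the block and 1 with weights. In caesium-treated roots the counts over all probe sets were 0, and 1 without the filter, 51 with the block, 22 with weights, 1 without both arrays titled as repeats and 0 to 13 without 1 array, with 0 members throughout. Between caesium-treated organs, where the numbers do not pair the arrays, 2 members were lower with the block, 2 with weights, 2 without the repeats and 1 to 2 without 1 array. Members called higher were 10 to 15 without 1 array, against 14.

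For the interaction, with 52 probe sets called, the counts were 14 with 1 added, 107 with 64 added, 26 without the filter, 140 with the block, 11 with the background covariate, 430 with weights, 9 without the repeats and 7 to 53 without 1 array. Members called lower were 0 with 1 added, with quantile normalization, without the filter, with the background covariate and without the repeats, 2 with the block, 4 with weights and 0 to 2 without 1 array. Potassium-starved shoots gave 2387 to 3809 calls without 1 array, against 3983, the fewest without control shoot replicate 3. Potassium-starved roots gave 200 calls, but 130 with 1 added, 93 without the filter, 724 with the block, 1 with the background covariate, 81 with only the groups compared, 1133 with weights, 127 without the repeats and 35 to 238 without 1 array. The causes of these moves were not tested.

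As median log2 values instead of sums, root markers differed from control by -0.0875 in potassium-starved shoots, 0.0183 in caesium-treated shoots, -0.5262 in potassium-starved roots and -0.1007 in caesium-treated roots, each opposite in sign to the sum. The exact permutation p of the third was 0.1 and of the others 0.6 to 1. In potassium-starved and control roots the ends of the range of this median were values of EXPA18, while PYK10 differed by 0.32, the other way. A search of promoters for motifs was not run, as no sequences were used here. With 3 arrays a group, 14 members without a listed gene and control shoot signals of some members near background, sizes of the dimmest members are the least precise.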
